A study of Homo sapiens with 18 samples.

Results

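DNA replication and S-phase genes were followed through 3 gene-silencing experiments as a list of 38 genes chosen by name. The list holds the subunits of the MCM2-7 helicase, the factors that license origins and activate the helicase, the sliding clamp and its loader, the replicative polymerases, the enzymes that finish Okazaki fragments, enzymes of nucleotide supply, and the cyclins and E2F factor of the G1/S transition. All 38 were present among the 25673 genes of the PBRM1 table, the 25540 genes of the IRF1 table and the 25557 genes of the MUC1 table, and all 38 passed the filter on low values in each table.

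The study sequenced RNA of 18 libraries, 3 in each of 6 groups. BT-549, derived from a triple-negative breast cancer (TNBC) with wild-type BRCA1, carried a stable PBRM1shRNA or served as the PBRM1 control. The same line carried a stable IRF1shRNA or served as the IRF1 control, and per the study's methods the stable controls express a scrambled shRNA. MDA-MB-436, whose BRCA1 is mutant, is also a TNBC line and carried a tetracycline-inducible MUC1 shRNA in both groups and were treated with doxycycline (DOX) at 500 ng/ml or with vehicle (0.1% DMSO). The hairpin RNA (shRNA) directs degradation of its target transcript. Each group is one cell population grown as triplicate cultures, so p-values rest on the spread between such cultures. In both BT-549 experiments that spread was estimated across genes of like level and not gene by gene. The labels do not say which hairpin was used, the length of the DOX treatment in MDA-MB-436 cells was not given, and DOX alone, without the MUC1 hairpin, was not analysed here.

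Before a cell enters S phase, the origin recognition complex (ORC), CDC6 and CDT1 load the MCM2-7 ring onto DNA at origins. CDC45 and the GINS complex then join MCM2-7 to form the active helicase, called CMG, and polymerase alpha with primase lays down the RNA-DNA primers that polymerases epsilon and delta extend. Most of these genes are transcribed at the G1/S boundary under E2F factors, which are held in check by RB and released by cyclin D and cyclin E kinases. In bulk RNA, a smaller share of cells in S phase and less RNA of these genes per cell cannot be told apart.

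Levels are TPM, an abundance scaled to a fixed total in each library and corrected for transcript length. Short noncoding RNAs took 75.7% to 79.2% of TPM in the PBRM1 experiment. Their share was 84.8% to 88.5% in the IRF1 experiment, and with DOX or vehicle it was 12.0% to 15.1%, so levels were compared only within a table. Fold changes are differences on the log2(TPM + 1) scale, given with the SE of the fit, and "rose", "fell", "higher" and "lower" refer to an adjusted p under 0.05 by limma over all genes tested. PBRM1 had 3.22, 2.69 and 2.95 TPM in the PBRM1shRNA libraries, against 12.3, 10.7 and 12.6 TPM in the PBRM1 control libraries a, b and c. IRF1 had 1.03, 1.30 and 1.18 TPM in the IRF1shRNA libraries, against 5.22, 4.49 and 4.54 TPM in the IRF1 control libraries. MUC1 had 3.65, 2.71 and 2.73 TPM with DOX, against 6.37, 4.97 and 5.55 TPM with vehicle. Each silenced gene was thus lower in its 3 silenced libraries, with no overlap. IRF1 itself fell to 7.46 ± 0.57 TPM in PBRM1shRNA cells, against 24.4 ± 1.62 TPM in controls (log2 fold -1.59 ± 0.09), and MUC1 fell there as well (log2 fold -0.54 ± 0.09), while PBRM1 did not pass in IRF1shRNA cells (log2 fold 0.02 ± 0.15). PBRM1 fell to 15.1 ± 0.43 TPM with DOX, against 23.4 ± 1.63 TPM with vehicle. IRF1 did not pass with DOX (log2 fold 0.04 ± 0.10), and neither did MUC1 in IRF1shRNA cells (log2 fold -0.08 ± 0.15). VIM, a mesenchymal marker, was at 193 TPM or more in each library, and CD3E and HBB were listed at 0 TPM in each. The summed level of 4 epithelial markers (EPCAM, KRT8, KRT18, CDH1) moved with the groups in all 3 tables, at 34.0 to 39.9 TPM with PBRM1shRNA against 3.90 to 4.57 TPM in its control, 0.827 to 1.01 TPM with IRF1shRNA against 1.73 to 2.37 TPM in its control, and 1648 to 1724 TPM with DOX against 836 to 866 TPM with vehicle. In the PBRM1 table the sum was carried by KRT18 and KRT8, and CDH1 was at 0.194 TPM in PBRM1shRNA cells and 0.688 TPM in controls. The sum of 3 mesenchymal markers (VIM, FN1, CD44) was 592 to 658 TPM with PBRM1shRNA against 493 to 571 TPM in its control, 256 to 311 TPM with IRF1shRNA against 354 to 468 TPM in its control, and 1850 to 1921 TPM with DOX against 2585 to 2730 TPM with vehicle. FN1 went against this sum in the PBRM1 table (13.9 TPM with PBRM1shRNA, 37.0 TPM in controls) and in the MUC1 table (322 TPM with DOX, 242 TPM with vehicle). Their part in the results below was not tested.

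The promoters of the replication genes shared sequence features that the choice of genes did not use. RefSeq start sites on GRCh38.p14 were found for 34 of the 38 genes (MCM4, MCM5, GINS4 and CCNE2 had no entry), and the 250 bases before each start were searched on both strands, with overlapping matches counted. An E2F core was taken as TTCCCGC, with TTGGCGC as a first variant, then TTCGCGC as another and finally TTGCCGC. At least 1 of these was found in 17 of the 34 (50%), against 11.0% of 27305 promoters. A CCAAT box, the site of the factor NF-Y, was found in 19 of the 34 (55.9%), against 33.0% of all promoters. TGACG, the core of sites for CREB and ATF factors, was found in 14 (41.2%), against 21.7%. The cell cycle homology region (TTTGAA or TTCGAA), known from promoters of late cell cycle genes, was found in 2 (5.88%), against 14.6%. The interferon-stimulated response element, the motif that IRF factors bind (taken as a pair of GAAA separated by any 2 bases), was found in 0 of the 34, against 3.07% of all promoters. The 34 windows held a median of 66.6% G and C, against 58% in all promoters, and the part of this difference in the shares was not tested.

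The stretches around the E2F cores of genes that the results turn on are, 5′ to 3′ along the gene, with the matching letters in capitals. PCNA, PRIM1, RFC3 and TYMS moved with silencing of PBRM1 and of IRF1, CDT1 moved with silencing of IRF1 and of MUC1, and POLA2 and MCM6 were 2 of the 3 genes that fell with PBRM1shRNA.
PCNA, chr20:5126660-5126696, minus strand: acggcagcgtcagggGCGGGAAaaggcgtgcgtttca
PRIM1, chr12:56752326-56752362, minus strand: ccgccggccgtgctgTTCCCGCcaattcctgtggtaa
RFC3, chr13:33818079-33818115, plus strand: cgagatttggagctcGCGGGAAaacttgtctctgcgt
TYMS, chr18:657599-657635, plus strand: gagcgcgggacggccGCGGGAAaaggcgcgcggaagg
CDT1, chr16:88803739-88803787, plus strand: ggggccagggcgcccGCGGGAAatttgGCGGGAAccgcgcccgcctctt
POLA2, chr11:65261895-65261931, plus strand: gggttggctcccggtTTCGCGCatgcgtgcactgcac
MCM6, chr2:135876508-135876609, minus strand: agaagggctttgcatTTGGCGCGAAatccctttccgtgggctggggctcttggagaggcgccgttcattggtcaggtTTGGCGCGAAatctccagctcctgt
PCNA, RFC3, TYMS and CDT1 carried TTCCCGC on the opposite strand, read here as GCGGGAA. In MCM6 each capital run holds TTGGCGC on the strand shown and, overlapping it, TTCGCGC on the other, which makes 4 matches. A match describes letters in a window and shows neither binding nor control.

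Silencing of PBRM1, a bromodomain subunit of the PBAF chromatin remodelling complex, was compared with its control to ask which replication genes move with it. In PBRM1shRNA cells 26 of the 38 genes rose, 3 fell and 9 did not pass the test. The rises were led by RRM1, GINS4, GINS1, POLE2, TYMS and TK1, whose log2 folds lay between 0.65 and 0.84, and the falls were those of POLA2, MCM6 and RFC1. Of all genes tested in this comparison, 24.6% were called higher and 34.8% lower. The median log2 fold was 0.29 over the 38 genes and -0.05 over all 10639 genes tested. The 2 groups did not overlap for 29 of the 38 genes, against 62% of all genes.

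All 4 genes of nucleotide supply rose. RRM1, the large subunit of ribonucleotide reductase, which makes deoxynucleotides, had 24.5, 20.5 and 23.1 TPM in the PBRM1shRNA libraries, against 12.9, 10.8 and 13.1 TPM in the controls (log2 fold 0.84 ± 0.09, adjusted p = 2.08e-20 by limma). With short noncoding RNAs removed, RRM1 rose by a log2 fold of 0.79 ± 0.05 (adjusted p = 2.66e-08 by limma). RRM2, the small subunit, had 33.7, 28.2 and 31.2 TPM with PBRM1shRNA, against 23.5, 20.2 and 24.1 TPM in the controls, a log2 fold of 0.44 ± 0.09. The large subunit rose by more, and the RRM1/RRM2 ratio within a library was 0.73 ± 0.01 in PBRM1shRNA cells and 0.54 ± 0.01 in controls (SD, n = 3 each). TYMS, thymidylate synthase, had 40.2, 34.4 and 37.6 TPM in PBRM1shRNA cells, against 23.1, 21.5 and 24.5 TPM in controls, a log2 fold of 0.67 ± 0.09. TK1, the thymidine kinase of the salvage route, had 17.5, 15.9 and 15.7 TPM in PBRM1shRNA cells, against 10.3, 9.23 and 10.7 TPM in controls, a log2 fold of 0.65 ± 0.09. The silenced and control libraries did not overlap for any of these 4 genes.

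Factors that turn loaded MCM2-7 into an active helicase also rose, 5 of 6. GINS1 had 11.6, 10.9 and 12.5 TPM in PBRM1shRNA cells, against 6.75, 6.47 and 7.11 TPM in controls, and GINS4 had 8.25, 7.59 and 8.19 TPM, against 4.64, 4.21 and 4.70 TPM (log2 fold 0.71 ± 0.09 for each). MCM10, which helps to activate CMG, had 6.91, 6.47 and 6.96 TPM in PBRM1shRNA cells, against 4.29, 3.93 and 4.78 TPM in controls, a log2 fold of 0.55 ± 0.09. CDC45 and GINS2 rose by log2 folds of 0.43 and 0.42. GINS3 was the exception within the 4-subunit GINS complex, at 3.30 ± 0.41 TPM in PBRM1shRNA cells and 3.55 ± 0.38 TPM in controls, with overlapping libraries and a log2 fold of -0.08 ± 0.08 that did not pass the test.

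The helicase ring itself did not move in 1 direction. MCM4 and MCM5 rose, with log2 folds of 0.21 ± 0.09 and 0.23 ± 0.09, and MCM6 fell. MCM5 had 15.5, 13.7 and 14.4 TPM in PBRM1shRNA cells, against 13.1, 11.2 and 12.5 TPM in controls. MCM6 had 15.4, 12.9 and 15.03 TPM in PBRM1shRNA cells, against 18.5, 16.1 and 19.0 TPM in controls (log2 fold -0.29 ± 0.09, adjusted p = 0.0024 by limma). MCM2 had 15.5, 14.1 and 14.7 TPM in PBRM1shRNA cells, against 15.8, 13.6 and 16.1 TPM in controls, with overlapping groups and a log2 fold of -0.04 ± 0.09. MCM3 and MCM7 had log2 folds of -0.04 and -0.15 and did not pass the test. Relative to the geometric mean of the 6 subunits, where the scale of a library drops out, MCM5 stood at -0.57 ± 0.02 in PBRM1shRNA cells and -0.83 ± 0.04 in controls on the log2 scale, and MCM6 at -0.58 ± 0.06 in PBRM1shRNA cells and -0.29 ± 0.02 in controls. MCM6 was thus above MCM5 in each control library, and the 2 subunits were at like levels in the silenced libraries. With 3 libraries against 3 an exact two-sided permutation test cannot go below 0.1, so ratios within a library are given as descriptions here and in the other comparisons.

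**Figure D1:**
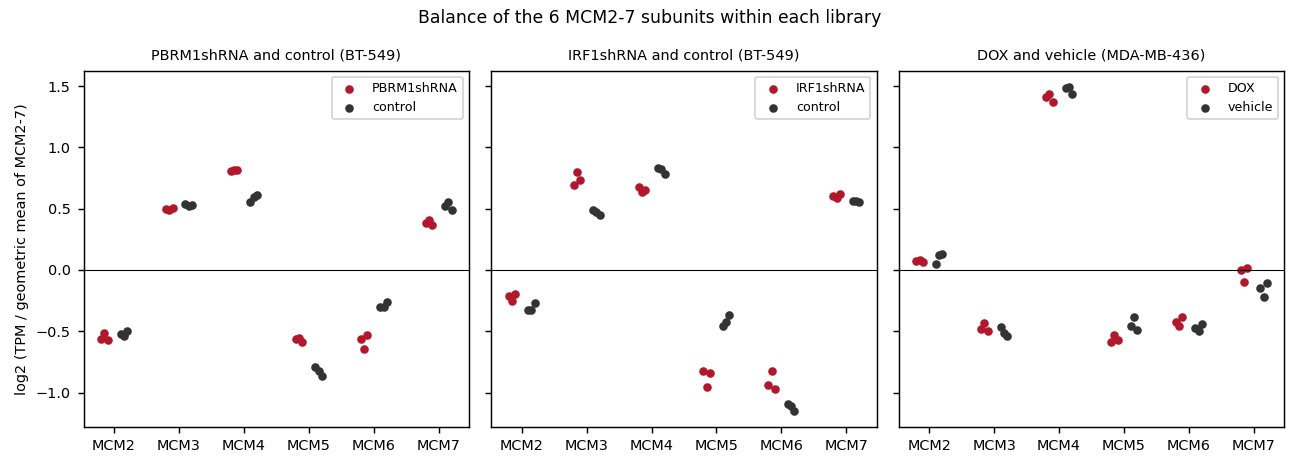
Each point is 1 library, and the y axis gives the log2 ratio of a subunit's TPM to the geometric mean of MCM2 to MCM7 in that library, with silenced libraries in red left of their reference libraries in dark grey. In BT-549 cells MCM5 is higher and MCM6 lower in the ring with PBRM1shRNA, and MCM5 is lower with IRF1shRNA (-0.87 against -0.42). The DOX and vehicle libraries overlap for MCM2, MCM3, MCM4 and MCM6. Without overlap, MCM5 is lower (-0.57 against -0.44) and MCM7 higher (-0.03 against -0.16) with DOX.

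Of the licensing factors, ORC1 was the only one of 4 to rise with PBRM1shRNA (log2 fold 0.24 ± 0.09), and its groups overlapped. With median-ratio or quantile scaling 3 of the 4 rose, since CDC6 and CDT1 then passed as higher. CDC6 had 6.34, 5.77 and 6.06 TPM in PBRM1shRNA cells, against 5.90, 5.32 and 6.14 TPM in controls, a log2 fold of 0.06 ± 0.09 that did not pass. PCNA, the sliding clamp, had 57.1, 47.9 and 54.8 TPM in PBRM1shRNA cells, against 42.1, 34.9 and 41.1 TPM in controls, a log2 fold of 0.43 ± 0.09 with no overlap. Its loader, replication factor C (RFC), split. The small subunits RFC2, RFC3 and RFC4 rose with log2 folds of 0.31, 0.29 and 0.38, and RFC5 did not pass at 0.12. RFC1, the large subunit, fell to 19.0 ± 0.86 TPM in PBRM1shRNA cells, against 21.99 ± 1.97 TPM in controls (log2 fold -0.20 ± 0.09).

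Polymerase and primase genes rose except for POLA2. POLE2, the second subunit of polymerase epsilon, had 3.94, 4.01 and 3.997 TPM in PBRM1shRNA cells, against 1.90, 1.82 and 2.58 TPM in controls, a log2 fold of 0.69 ± 0.08. POLE, POLD1, PRIM1, PRIM2 and POLA1 rose with log2 folds of 0.23 to 0.39. POLA2, the regulatory subunit of polymerase alpha, fell to 5.62 ± 0.29 TPM in PBRM1shRNA cells, against 7.13 ± 0.51 TPM in controls (log2 fold -0.30 ± 0.09). The catalytic and regulatory subunits thus parted, and the POLA1/POLA2 ratio was 1.64 ± 0.04 in PBRM1shRNA cells and 1.03 ± 0.04 in controls. LIG1, which seals Okazaki fragments, had 3.96, 4.13 and 3.996 TPM in PBRM1shRNA cells, against 2.69, 2.55 and 2.77 TPM in controls, a log2 fold of 0.45 ± 0.08. FEN1, the flap endonuclease that trims them, had 26.1, 21.7 and 23.5 TPM in PBRM1shRNA cells, against 18.7, 15.3 and 17.8 TPM in controls, a log2 fold of 0.44 ± 0.09.

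The cyclin E genes moved apart. CCNE2 had 13.0, 11.5 and 12.4 TPM in PBRM1shRNA cells, against 9.39, 7.87 and 9.36 TPM in controls, a log2 fold of 0.43 ± 0.09. CCNE1 had 2.12, 2.39 and 2.09 TPM in PBRM1shRNA cells, against 2.43, 2.36 and 2.71 TPM in controls, with overlap and a log2 fold of -0.13 ± 0.08 that did not pass. The CCNE1/CCNE2 ratio was 0.18 ± 0.02 in PBRM1shRNA cells and 0.28 ± 0.02 in controls, without overlap. E2F1 had 14.8, 14.2 and 14.97 TPM in PBRM1shRNA cells, against 11.4, 9.99 and 11.3 TPM in controls, a log2 fold of 0.40 ± 0.09.

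The rises numbered 26 with the short noncoding RNAs removed, and these were the same genes, and 29 with either median-ratio or quantile scaling. With the replicate number as a block, which pairs the PBRM1 libraries, 28 rose. The number of falls moved more. They numbered 8 with the short RNAs removed (MCM2, MCM3, MCM7, CCNE1 and ORC6 were added), 6 with the replicate number as a block (MCM7, CCNE1 and ORC6 were added, and CDT1 and RFC5 were added to the rises), 1 without PBRM1shRNA library 2, 2 without PBRM1shRNA library 1 or 3 or without PBRM1 control a or c, and 5 without PBRM1 control b. Removal of the short RNAs moved the median of all genes by -0.12 on the log2 scale, and relative to that median the 38 genes stood at 0.34 with the short RNAs and 0.40 without them. The share of called genes that were higher, 41.4% of all calls, was 30.7% with the short RNAs removed and 57.1% with quantile scaling. Of all genes, 2846 of 12711 rose and 6435 fell with the short RNAs removed. Of 10639 genes, 3838 rose and 4242 fell with median-ratio scaling. With quantile scaling these counts were 4558 and 3421, and with the block 3457 and 4573. On TPM without short RNAs, the 38 genes took 0.237% ± 0.007 of the total in PBRM1shRNA cells and 0.205% ± 0.003 in controls.

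**Figure D2:**
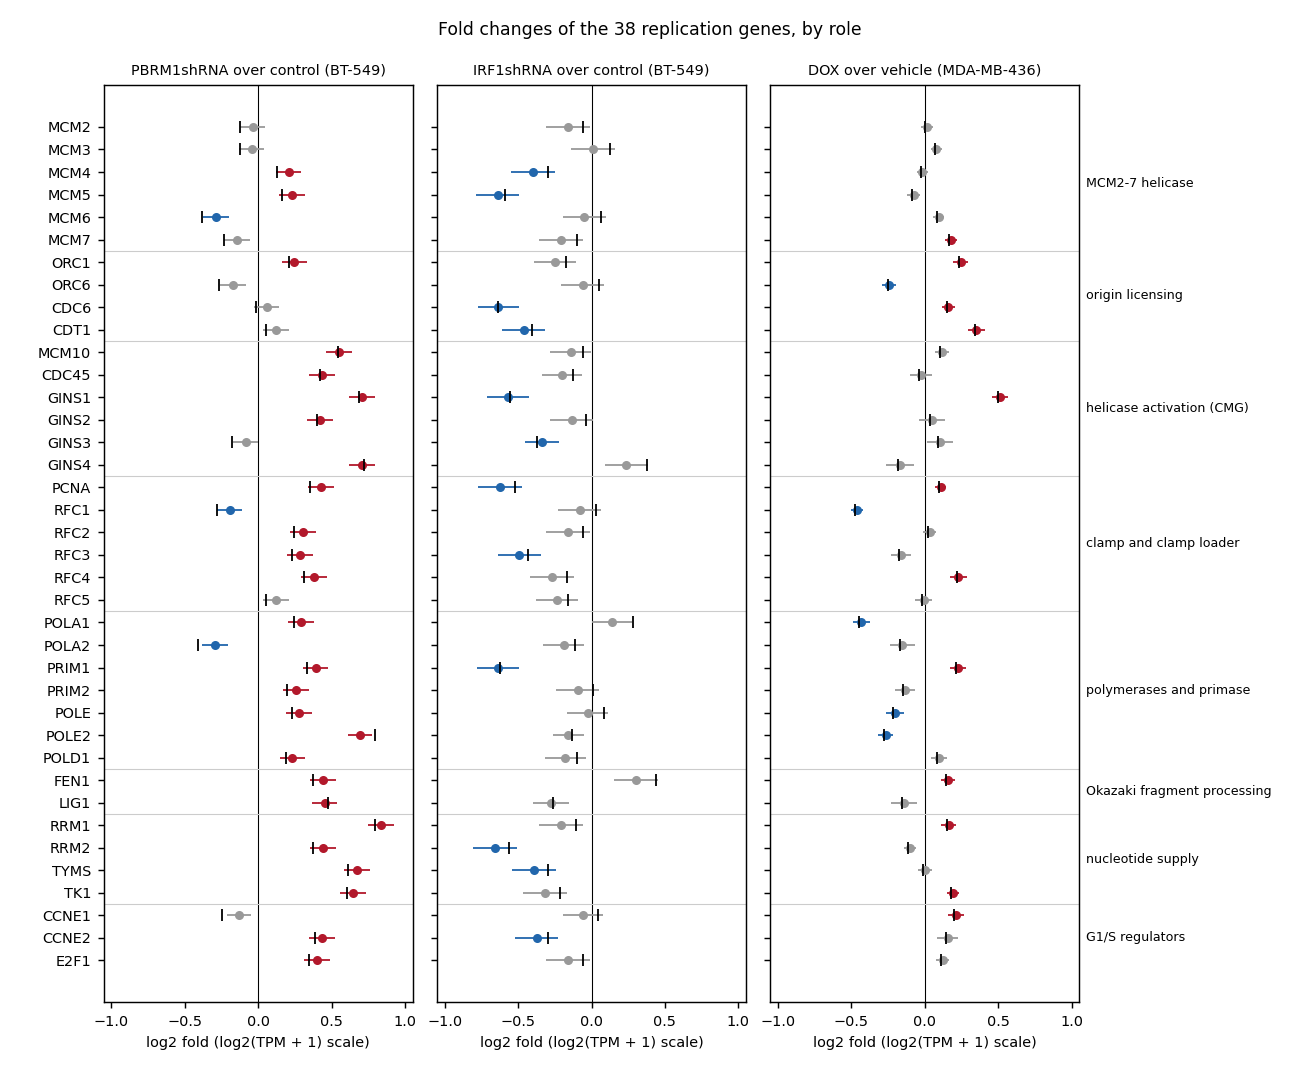
Points are log2 folds of the 38 genes on the log2(TPM + 1) scale with bars of 1 SE, by role from top to bottom, for PBRM1shRNA over control, IRF1shRNA over control and DOX over vehicle. Red points rose and blue points fell at an adjusted p under 0.05, grey points did not pass, and black ticks give the fold with short noncoding RNAs removed. In the panels 26, 0 and 12 genes rose and 3, 12 and 5 fell.

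Silencing of IRF1, a transcription factor of the interferon response, was compared with its own control in the same line. In IRF1shRNA cells 12 of the 38 genes fell and 26 did not pass the test. No gene rose by limma, and 1 was higher at an unadjusted p under 0.05. The falls were led by RRM2, MCM5, PRIM1, CDC6, PCNA and GINS1, with log2 folds between -0.66 and -0.57. Of all genes tested here, 5.76% were called higher and 18.5% lower. The median log2 fold was -0.20 over the 38 genes and -0.06 over all 9135 genes tested, and the groups did not overlap for 15 of the 38 genes, against 33.9% of all genes.

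CDC6, the licensing ATPase, had 3.22, 3.99 and 3.22 TPM in the IRF1shRNA libraries, against 7.17, 5.71 and 5.07 TPM in the IRF1 controls, a log2 fold of -0.63 ± 0.14. CDT1, its partner in loading MCM2-7, had 5.43, 5.57 and 5.48 TPM in IRF1shRNA cells, against 8.97, 7.47 and 7.47 TPM in controls, a log2 fold of -0.46 ± 0.15. MCM5 had 6.16, 6.94 and 6.34 TPM in IRF1shRNA cells, against 11.9, 10.1 and 10.0 TPM in controls, a log2 fold of -0.64 ± 0.15. In these 3 genes the highest silenced library lay below the lowest control. MCM4 had 17.3, 20.9 and 17.9 TPM in IRF1shRNA cells, against 29.1, 23.9 and 22.2 TPM in controls, a log2 fold of -0.40 ± 0.15. MCM2 had 9.36, 11.3 and 9.91 TPM in IRF1shRNA cells, against 13.0, 10.8 and 10.7 TPM in controls, with overlap and a log2 fold of -0.16 ± 0.15 that did not pass. MCM3, MCM6 and MCM7 did not pass either. Relative to the geometric mean of the subunits on the log2 scale, MCM5 stood at -0.87 ± 0.07 in IRF1shRNA cells and -0.42 ± 0.05 in controls. On this scale MCM4 was also lower with IRF1shRNA (0.66 against 0.81). MCM3 (0.74 against 0.47) and MCM6 (-0.91 against -1.12) were higher, as were MCM2 and MCM7 by less, all without overlap.

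PCNA had 25.6, 31.7 and 25.8 TPM in IRF1shRNA cells, against 49.9, 40.7 and 39.1 TPM in controls (log2 fold -0.62 ± 0.15, adjusted p = 0.000416 by limma). RFC3, a small subunit of the loader, had 5.76, 6.97 and 5.75 TPM in IRF1shRNA cells, against 11.1, 8.73 and 7.63 TPM in controls, a log2 fold of -0.49 ± 0.15. The other 4 loader subunits did not pass. PRIM1, the catalytic subunit of primase, had 3.91, 5.19 and 3.90 TPM in IRF1shRNA cells, against 8.69, 7.17 and 6.08 TPM in controls, a log2 fold of -0.64 ± 0.14. Its partner PRIM2 had 6.78 ± 1.09 TPM in IRF1shRNA cells and 7.32 ± 1.34 TPM in controls and did not pass. The PRIM1/PRIM2 ratio was 0.64 ± 0.02 in IRF1shRNA cells and 0.999 ± 0.013 in controls.

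RRM2 had 20.3, 25.0 and 19.96 TPM in IRF1shRNA cells, against 41.7, 33.9 and 29.7 TPM in controls, a log2 fold of -0.66 ± 0.15. RRM1 did not pass, at 11.8 ± 1.89 TPM in IRF1shRNA cells and 13.8 ± 2.22 TPM in controls. The RRM1/RRM2 ratio was 0.54 ± 0.02 in IRF1shRNA cells and 0.39 ± 0.01 in controls. TYMS had 12.8, 16.1 and 12.5 TPM in IRF1shRNA cells, against 21.1, 17.9 and 16.2 TPM in controls, a log2 fold of -0.39 ± 0.15. The highest silenced library and the lowest control lay next to each other here, with no overlap. GINS1 had 3.73, 4.31 and 3.55 TPM in IRF1shRNA cells, against 7.51, 6.09 and 5.22 TPM in controls, a log2 fold of -0.57 ± 0.14. GINS3 also fell (log2 fold -0.34 ± 0.12).

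CCNE2 had 6.17, 7.53 and 6.25 TPM in IRF1shRNA cells, against 10.9, 8.55 and 7.45 TPM in controls, and fell with a log2 fold of -0.37 ± 0.15, although its groups overlapped. CCNE1 had 3.02, 3.998 and 3.20 TPM in IRF1shRNA cells, against 4.26, 3.43 and 3.09 TPM in controls, with overlap and a log2 fold of -0.06 ± 0.14. The CCNE1/CCNE2 ratio was 0.51 ± 0.02 in IRF1shRNA cells and 0.40 ± 0.01 in controls. E2F1 had 7.49, 8.48 and 7.68 TPM in IRF1shRNA cells, against 10.4, 8.33 and 8.17 TPM in controls, and did not pass at a log2 fold of -0.16 ± 0.15.

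Within each IRF1 group 1 library was the highest for nearly all of the replication genes. IRF1shRNA library 2 was the highest of its group for 37 of the 38 genes, and IRF1 control library 1 was the highest of its group for 38 of the 38. Each also had the lowest share of short noncoding RNAs in its group. The share was 86.3% in IRF1shRNA library 2 (88.5% and 88.4% in libraries 1 and 3). It was 84.8% in IRF1 control library 1 (87.3% and 87.9% in libraries 2 and 3). TPM has a fixed total, so such a share scales all other genes of a library together. In the PBRM1 table, PBRM1shRNA library 2 and control b, with the highest shares, were lowest for 33 and 34 of the 38 genes. The IRF1 counts moved with the scaling. With the short noncoding RNAs removed 19 genes fell and 4 rose, with the 12 falls among the 19. MCM7, CDC45, RFC4, RFC5, TK1, LIG1 and ORC1 were added to the falls, and MCM3, GINS4, POLA1 and FEN1 made up the rises. FEN1 had 138, 149 and 142 TPM of RNA other than short RNAs in IRF1shRNA cells, against 104, 106 and 106 TPM in controls (log2 fold 0.44 ± 0.04), where TPM as deposited gave a log2 fold of 0.30 ± 0.15 that did not pass. GINS4 had 69.1, 71.8 and 66.7 TPM on this scale in IRF1shRNA cells, against 52.9, 56.0 and 50.1 TPM in controls. The falls numbered 25 with median-ratio scaling (3 rose) and 20 with quantile scaling (4 rose), 7 with no filter on low values, and 6 without IRF1shRNA library 1, without IRF1shRNA library 3 or without IRF1 control library 2. Without IRF1 control library 1 there were 9 falls and 2 rises. The share of all calls that were higher was 23.7%, against 54.6% with short RNAs removed, 48.1% with median-ratio scaling and 56.6% with quantile scaling. Of all genes, 4500 of 12724 rose and 3743 fell with short RNAs removed. Of 9135 genes, 3027 rose and 3272 fell with median-ratio scaling, and 3626 rose and 2781 fell with quantile scaling. On TPM without short RNAs, the 38 genes took 0.264% ± 0.006 of the total in IRF1shRNA cells and 0.301% ± 0.007 in controls.

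**Figure D3:**
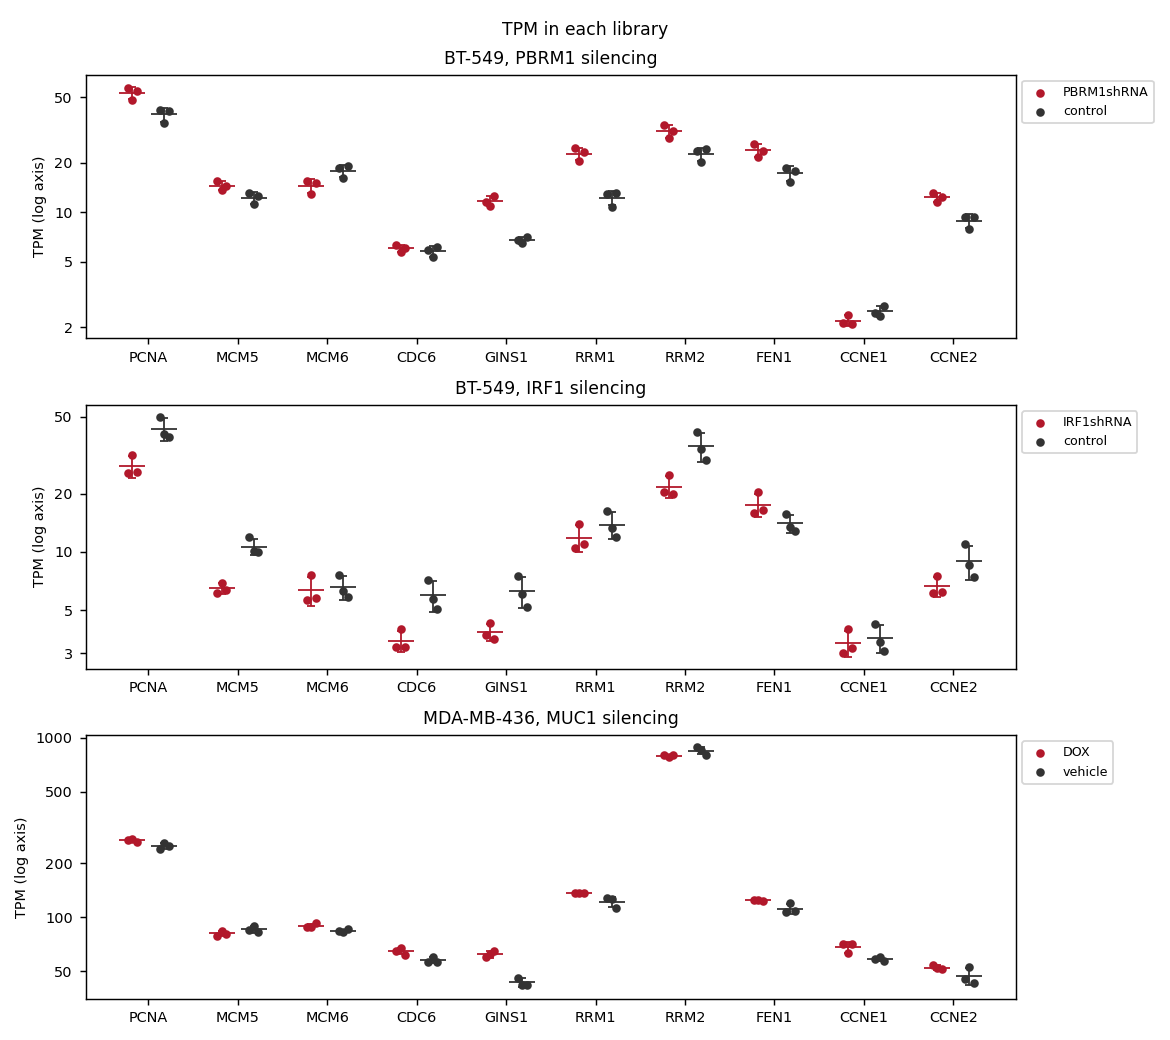
TPM of 10 replication genes on a log axis, 1 panel per experiment, with each point 1 library, silenced libraries in red left of their reference libraries in dark grey, and horizontal and vertical bars for the mean and SD of 3 libraries. PCNA, RRM2 and GINS1 are higher with PBRM1shRNA and lower with IRF1shRNA, MCM6 is lower with PBRM1shRNA, and of these 10 genes GINS1 has the largest fold with DOX (62.2 against 43.3 TPM on average).

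The DOX comparison asked what moves when the MUC1 hairpin is induced in MDA-MB-436 cells. With DOX 12 of the 38 genes rose, 5 fell and 21 did not pass the test. GINS1 rose most, and RFC1 and POLA1 fell most. Of all genes tested here, 27% were called higher and 23.4% lower. The median log2 fold was 0.06 over the 38 genes and 0.02 over all 13229 genes tested, and the groups did not overlap for 23 of the 38 genes, against 59.2% of all genes. The shares of replication genes that rose (31.6%) and that did not overlap (60.5%) were near these backgrounds.

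GINS1 had 59.6, 62.2 and 64.8 TPM with DOX, against 46.0, 42.0 and 41.9 TPM with vehicle (log2 fold 0.51 ± 0.05, adjusted p = 6.39e-05 by limma). The other 3 GINS subunits did not pass. CDT1 had 60.6, 57.9 and 60.2 TPM with DOX, against 44.7, 44.2 and 50.8 TPM with vehicle, a log2 fold of 0.35 ± 0.06. ORC1, the ATPase of ORC, had 57.7, 56.0 and 54.2 TPM with DOX, against 48.2, 49.1 and 44.1 TPM with vehicle, a log2 fold of 0.24 ± 0.05. CDC6 had 64.8, 67.4 and 61.9 TPM with DOX, against 56.6, 60.1 and 56.5 TPM with vehicle, a log2 fold of 0.16 ± 0.05. Of the 4 licensing factors only ORC6 fell, with 53.3, 55.8 and 58.0 TPM with DOX, against 64.0, 68.6 and 65.2 TPM with vehicle (log2 fold -0.24 ± 0.05). None of these 5 genes overlapped between the groups. In the MCM2-7 ring MCM7 alone passed the test (log2 fold 0.18 ± 0.04), and MCM2 had 124, 129 and 126 TPM with DOX, against 120, 128 and 127 TPM with vehicle, a log2 fold of 0.02 ± 0.04.

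RFC1 had 30.2, 29.2 and 30.2 TPM with DOX, against 41.4, 42.0 and 41.1 TPM with vehicle (log2 fold -0.46 ± 0.04, adjusted p = 3.62e-05 by limma). RFC4 had 67.8, 71.2 and 70.5 TPM with DOX, against 64.9, 58.0 and 55.6 TPM with vehicle, a log2 fold of 0.23 ± 0.06. The large and a small subunit of the loader thus moved in opposite directions. PCNA had 269, 271 and 264 TPM with DOX, against 240, 258 and 248 TPM with vehicle, a log2 fold of 0.11 ± 0.04. POLA1, the catalytic subunit of polymerase alpha, had 23.6, 23.5 and 25.7 TPM with DOX, against 32.4, 31.9 and 35.0 TPM with vehicle, a log2 fold of -0.43 ± 0.06. POLE2 had 35.8, 38.8 and 34.6 TPM with DOX, against 45.7, 43.2 and 42.9 TPM with vehicle, a log2 fold of -0.27 ± 0.05, and POLE also fell (log2 fold -0.20 ± 0.06). PRIM1 rose, with 77.8, 69.2 and 75.2 TPM with DOX, against 65.2, 63.6 and 60.4 TPM with vehicle (log2 fold 0.23 ± 0.05).

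CCNE1 had 70.8, 62.8 and 70.5 TPM with DOX, against 58.6, 59.7 and 56.9 TPM with vehicle, a log2 fold of 0.21 ± 0.05. CCNE2 had 53.9, 52.0 and 51.2 TPM with DOX, against 45.1, 53.1 and 43.1 TPM with vehicle, with overlap and a log2 fold of 0.16 ± 0.07 that did not pass. The CCNE1/CCNE2 ratios overlapped, at 1.30 ± 0.09 with DOX and 1.25 ± 0.11 with vehicle. E2F1 had 51.7, 49.5 and 49.1 TPM with DOX, against 46.0, 44.2 and 47.6 TPM with vehicle, and just missed the threshold (log2 fold 0.12 ± 0.05, adjusted p = 0.0503 by limma). RRM2, the highest of the 38 genes in this table, had 799, 775 and 796 TPM with DOX, against 885, 851 and 804 TPM with vehicle, with no overlap and a log2 fold of -0.10 ± 0.04 that did not pass, although it fell with short RNAs removed (log2 fold -0.11, adjusted p = 0.0157 by limma) and with median-ratio scaling (-0.12). RRM1 rose by a log2 fold of 0.16 ± 0.05, so that the RRM1/RRM2 ratio was 0.172 ± 0.002 with DOX and 0.144 ± 0.004 with vehicle. TK1, MCM7 and FEN1 rose with log2 folds of 0.16 to 0.19. The number of falls was 8 with quantile scaling, where 3330 of all 13229 genes fell. The members took 0.421% ± 0.003 of TPM without short RNAs with DOX and 0.418% ± 0.002 with vehicle.

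Set side by side, 9 genes rose with PBRM1shRNA and fell with IRF1shRNA in BT-549 cells. They were PCNA, GINS1, PRIM1, MCM4, MCM5, RFC3, RRM2, TYMS and CCNE2, and the first 3 of these also rose with DOX in MDA-MB-436 cells. Since 26 of the 38 genes rose in one comparison and 12 fell in the other, the product of the 2 shares comes to 8.21 genes, so the 9 are near what the separate counts bring. Over all 9032 genes tested in both, 370 (4.10%) rose with PBRM1shRNA and fell with IRF1shRNA. The rise of PCNA with DOX was lost with median-ratio scaling (log2 fold 0.09), with no trend, and when any library other than vehicle library 2 was left out. RFC1 fell with PBRM1shRNA and with DOX. CDC6 and CDT1 fell with IRF1shRNA and rose with DOX, the rise of CDC6 being lost with quantile scaling (log2 fold 0.11) and without DOX library 1 or 2 or vehicle library 1, and POLA1, POLE and POLE2 rose with PBRM1shRNA and fell with DOX. MCM2, MCM3 and RFC5 did not pass in any comparison with all libraries, TPM as deposited and no block. With short RNAs removed MCM2 and MCM3 fell with PBRM1shRNA (log2 folds -0.12 and -0.13). In that setting MCM3 rose (0.13) and RFC5 fell (-0.16) with IRF1shRNA. Under median-ratio scaling RFC5 rose with PBRM1shRNA and MCM2 fell with IRF1shRNA. The difference between the comparisons was not tested, since each table was normalized on its own. Across the 38 genes the log2 folds of PBRM1shRNA and IRF1shRNA had a Spearman rho of -0.15, those of PBRM1shRNA and DOX 0.10, and those of IRF1shRNA and DOX -0.34, and genes are not independent replicates. The E2F core was in the promoters of 12 of the 22 matched genes that rose with PBRM1shRNA, 2 of the 3 that fell and 3 of the 9 that did not pass. It was in 5 of 9 that fell with IRF1shRNA and 12 of 25 that did not pass, and in 7 of 12 that rose with DOX, 2 of 5 that fell and 8 of 17 that did not pass.

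**Figure D4:**
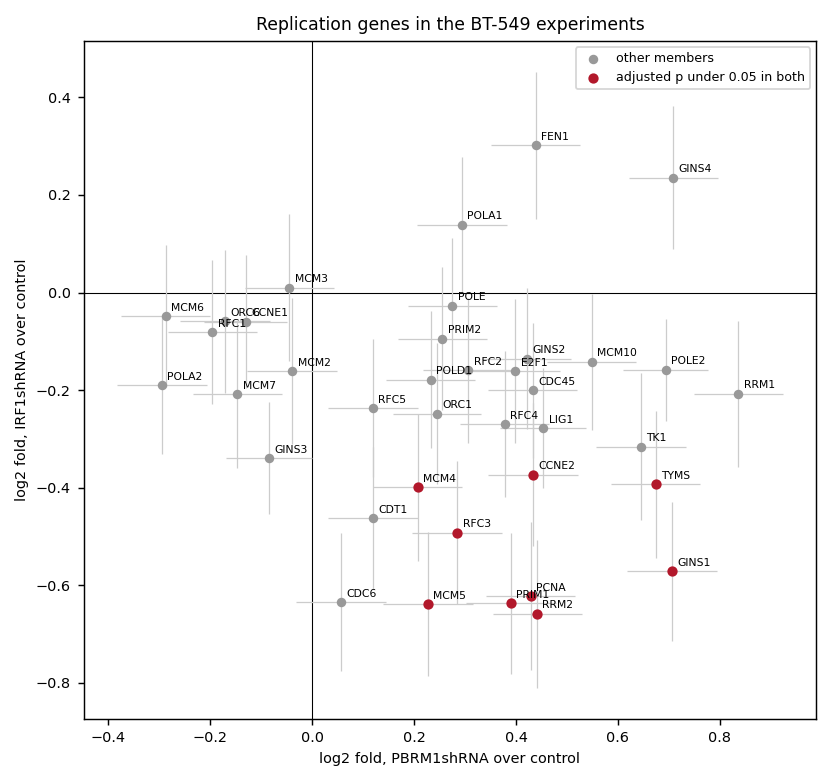
Each point is 1 of the 38 genes, with the log2 fold of PBRM1shRNA over control on the x axis and that of IRF1shRNA over control on the y axis, both on the log2(TPM + 1) scale with bars of 1 SE. The 9 red points passed the test in both comparisons, and all 9 lie at the lower right, where double calls had to lie unless they were among the 3 genes that fell with PBRM1shRNA, since no gene rose with IRF1shRNA.

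Other genes of the same pathways were counted in lists, to be read beside the shares of all genes tested. These were 24.6% higher and 34.8% lower with PBRM1shRNA, 5.76% and 18.5% with IRF1shRNA, and 27% and 23.4% with DOX. With short RNAs removed, 2846 of all 12711 genes rose and 6435 fell with PBRM1shRNA. In the IRF1 comparison 4500 of 12724 then rose and 3743 fell. With PBRM1shRNA, of 41 other fork and origin genes tested, 19 rose and 4 fell, with a median log2 fold of 0.18. The rises numbered 20 with short RNAs removed (median 0.10), 26 with median-ratio scaling and 30 with quantile scaling. PCLAF, a PCNA-binding protein, had 15.3 ± 0.84 TPM in PBRM1shRNA cells and 6.02 ± 0.71 TPM in controls (log2 fold 1.22 ± 0.09), DSCC1, a subunit of an alternative clamp loader, rose by a log2 fold of 0.79, and RPA1 and RPA3, subunits of the single-strand binding protein, rose by 0.50 each. DBF4, the activator of the CDC7 kinase, rose by 0.58, and CDC7 itself fell with a log2 fold of -0.23. With IRF1shRNA 1 of 38 such genes rose (TIPIN, log2 fold 0.44) and 3 fell (DSCC1, POLE3 and PCLAF), and with short RNAs removed 10 of 42 rose and 8 fell. With DOX 15 of 42 rose and 11 fell, with DSCC1 at 0.59 and RPA3 at 0.49. DSCC1 thus rose in the PBRM1 and MUC1 tables and fell in the IRF1 table.

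In the wider nucleotide supply list of 22 genes, 9 rose and 5 fell with PBRM1shRNA, and 6 rose and 5 fell with DOX. The DOX shares, 27.3% and 22.7%, are near those of all genes tested (27% and 23.4%). With IRF1shRNA 5 fell, none was higher by limma, and 0 were higher at an unadjusted p under 0.05. There 7 rose and 9 fell with short RNAs removed, 3 and 10 with median-ratio scaling, and 6 and 10 with quantile scaling. SAMHD1, which breaks down deoxynucleotides and is an interferon-inducible gene, had 6.60 ± 0.48 TPM in PBRM1shRNA cells and 48.9 ± 3.54 TPM in controls (log2 fold -2.72 ± 0.09), and 5.04 ± 0.81 TPM in IRF1shRNA cells and 13.9 ± 1.47 TPM in controls (log2 fold -1.30 ± 0.15). With DOX it did not pass, at 19.4 ± 1.14 TPM, against 17.7 ± 0.98 TPM with vehicle. CTPS1, CTP synthase, fell to 112 ± 2.23 TPM with DOX, against 192 ± 7.62 TPM with vehicle.

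The E2F, RB and G1/S list held genes of opposite roles. With PBRM1shRNA 10 of 32 rose and 12 fell. CDKN1A, the CDK inhibitor p21, fell to 3.09 ± 0.18 TPM in PBRM1shRNA cells, against 9.29 ± 0.48 TPM in controls, and MYBL2, SKP2 and CCNA2, which act in S phase entry and progress, rose with log2 folds of 1.26, 1.03 and 1.001. The CDK inhibitors of the list did not all move the same way. CDKN2C, a CDK inhibitor, rose to 45.4 ± 2.13 TPM in PBRM1shRNA cells, against 21.4 ± 1.70 TPM in controls (log2 fold 1.055 ± 0.087). CDKN2B, another CDK inhibitor, fell as CDKN1A did, by 0.87 on the log2 scale. CCND3, cyclin D3, fell by 0.67 on the log2 scale. Of the other E2F genes E2F8 rose, E2F4, E2F5 and E2F7 fell, and E2F2, E2F3 and E2F6 did not pass. With IRF1shRNA 3 of 32 rose and 11 fell, and with short RNAs removed 11 rose and 14 fell. CCND1, cyclin D1, fell to 1.21 ± 0.10 TPM in IRF1shRNA cells, against 6.77 ± 1.25 TPM in controls (log2 fold -1.80 ± 0.13), CDK2 fell by 0.50, and MYBL2 fell by 1.06 on the log2 scale. CDKN1A fell as well, to 2.08 ± 0.07 TPM in IRF1shRNA cells, against 4.58 ± 0.50 TPM in controls, and CDKN1B, the inhibitor p27, rose (log2 fold 0.45 ± 0.15). RB1 fell in all 3 comparisons, with log2 folds of -0.25 with PBRM1shRNA, -0.31 with IRF1shRNA and -0.30 with DOX. With DOX 13 of 34 rose and 9 fell. RBL1, the RB relative p107, fell to 6.90 ± 0.48 TPM with DOX, against 17.5 ± 1.66 TPM with vehicle, and CDKN1A rose to 39.8 ± 2.62 TPM with DOX, against 24.2 ± 0.56 TPM with vehicle.

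Genes used later in the cycle, or coupled to DNA synthesis, moved in their own ways. With PBRM1shRNA 48 of 48 replication-dependent histone genes tested rose, with a median log2 fold of 1.33, and 40 of 42 mitotic genes rose, with a median of 0.66. With IRF1shRNA 35 of 52 histone genes and 7 of 42 mitotic genes fell (38 and 17 with short RNAs removed, where 9 mitotic genes rose). The 7 mitotic genes are 16.7% of those tested, near the 18.5% of all genes that fell with IRF1shRNA. With DOX 40 of 51 histone genes and 21 of 42 mitotic genes fell, with median log2 folds of -0.45 and -0.17. Histone transcripts lack a poly(A) tail when made in S phase, and a kit that selects poly(A) RNA sees only part of them. All 18 libraries were made with such a kit. Short noncoding RNAs still held 75.7% to 79.2% of TPM in the PBRM1 experiment and 84.8% to 88.5% in the IRF1 experiment. With DOX or vehicle they held 12.0% to 15.1%. How far each library was selected for poly(A) RNA was not tested. The proliferation marker MKI67 had 26.3 ± 1.39 TPM in PBRM1shRNA cells and 16.6 ± 1.77 TPM in controls (log2 fold 0.64 ± 0.09), and did not pass with IRF1shRNA or with DOX, at log2 folds of -0.26 ± 0.15 and 0.01 ± 0.04, although MKI67 fell with IRF1shRNA once short RNAs were removed (log2 fold -0.16). Of 16 genes of chromatin assembly at the fork, 9 rose with PBRM1shRNA (10 rose and 3 fell with short RNAs removed), 1 fell with IRF1shRNA (UHRF1, log2 fold -0.82 ± 0.15), and 6 rose and 2 fell with DOX (ASF1B, a histone chaperone, at 0.59 ± 0.04). With IRF1shRNA 4 of these 16 genes rose and 3 fell with short RNAs removed, 3 and 5 with median-ratio scaling and 4 and 4 with quantile scaling.

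**Figure D5:**
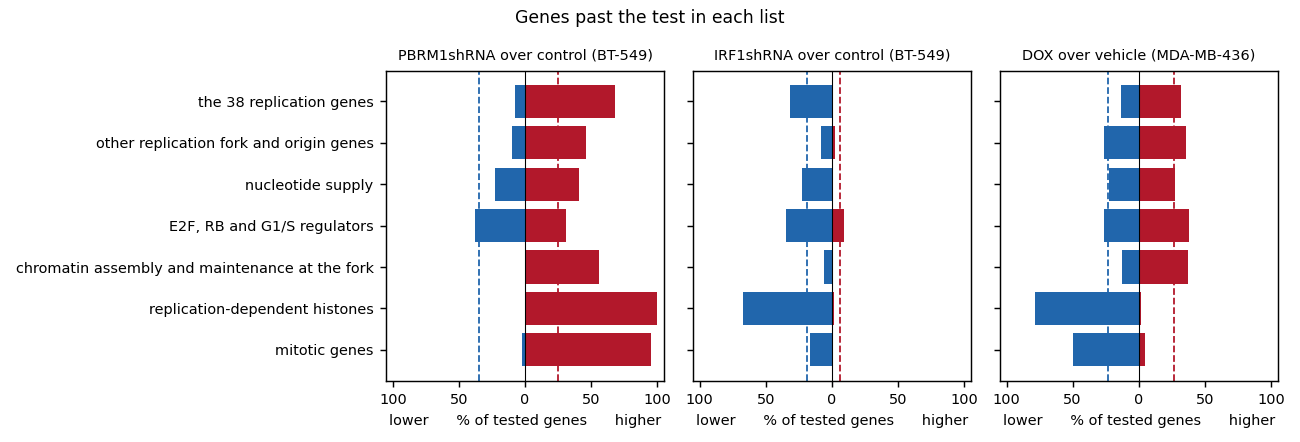
Bars give the percentage of tested genes of each list that rose (red, to the right) or fell (blue, to the left) at an adjusted p under 0.05, for PBRM1shRNA over control, IRF1shRNA over control and DOX over vehicle, and dashed lines give the same percentages over all genes tested. For the 38 replication genes 68.4% rose with PBRM1shRNA (dashed line at 24.6%), 31.6% fell with IRF1shRNA (18.5%) and 31.6% rose with DOX (27%).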

How the data were processed

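RNA-seq was performed on 18 libraries with a stranded poly(A) mRNA kit, in triplicate cultures. The submitters' processing notes name STAR, GRCh38 and DESeq2. Tool versions, the counter, the annotation and the program behind the TPM values: not given in the sources used here. TPM values were deposited by the authors for each library in 1 table per experiment. The authors also deposited DESeq2 tables, of which only the mean normalized count of each gene (a signal averaged by the authors over the libraries of a comparison) was used, as a measure of depth. It was 176 (CCNE1) to 7131 (MCM4) for the 38 genes in the PBRM1 table, 585 (POLE2) to 23699 (MCM4) in the IRF1 table and 193 (POLA2) to 13925 (RRM2) in the MUC1 table. Library totals were not used here, so no counting interval is given. The fold changes and p-values of the authors' own comparisons in those tables were not used.

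Genes were kept where 3 or more of the 6 libraries had at least 1 TPM, and were tested on log2(TPM + 1) with limma 3.58.1 (limma-trend, two-sided) in R 4.3.3, with Benjamini-Hochberg adjustment over all genes of the table and a threshold of 0.05. A fold change on this scale understates the change of low genes. In both BT-549 fits limma gave every gene the spread estimated across genes of like level. The scripts were tested on simulated data. PBRM1 control columns a, b and c match the group but no single sample. Same-numbered PBRM1 libraries (a, b and c taken as 1, 2 and 3) deviated together, with correlations across genes of 0.455, 0.309 and 0.290. These were 0.161, 0.121 and 0.227 with short noncoding RNAs removed. The block uses this pairing. Alternatives were a pseudocount of 0.1 TPM, no filter, a mean of at least 5 TPM, removal of short noncoding RNAs with rescaling, median-ratio and quantile scaling, no trend, a replicate block and leaving out each library.

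The 38 genes and the lists were chosen with earlier results of these data known. Values in every library are given, in each comparison, for those of the 38 genes among the 10 largest folds that passed the test without overlap, and for PCNA, MCM2, CDC6, CCNE1, CCNE2, E2F1 and RRM2. From each other list up to 3 genes in each direction with the largest folds were named on the same terms, besides a set of cell cycle genes named for their role; values of these genes in the other comparisons are given for contrast.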

Additional observations from a re-analysis of the deposited data

How the results depend on the processing

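Levels are TPM in which short noncoding RNAs hold most of the total in BT-549 cells, and that share limits how far a level can be read there. With PBRM1shRNA the 3 falls became 8 with short RNAs removed, 5 with quantile scaling, 6 with the replicate block and 9 with both the removal and the block, an alternative chosen after seeing the data. Leaving out 1 library gave 1 to 5 falls (1 without PBRM1shRNA library 2, 5 without PBRM1 control b), 20 to 26 rises and a median log2 fold of 0.23 to 0.34. With IRF1shRNA the 12 falls became 7 with no filter, 19 with short RNAs removed, 25 with median-ratio scaling, 20 with quantile scaling and 6 to 12 with 1 library left out, and the rises became 4 with short RNAs removed, 3 with median-ratio scaling, 4 with quantile scaling and 0 to 2 with 1 library left out. The cause was not tested. With DOX the falls became 8 and the median 0.0199 with quantile scaling, and leaving out 1 library gave 8 to 13 rises and 4 to 7 falls. Counts over all genes under these scalings are given with each comparison above.

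Same-numbered libraries had correlations of -0.21, 0.09 and 0.23 (IRF1) and 0.05, -0.04 and 0.01 (MUC1), and not every library correlated best with its own number. Whether same-numbered IRF1 or MUC1 libraries form pairs cannot be told from these few values. With the replicate block the IRF1 falls were 6 (MCM5, CDC6, GINS1, PCNA, PRIM1 and RRM2), and the DOX counts stayed at 12 and 5.

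Log2 folds that changed sign were all of genes that had not passed the test. With PBRM1shRNA these were MCM2 (0.0017 with quantile scaling, -0.11 to 0.00385 with 1 library left out), MCM3 (-0.11 to 0.0054 with 1 left out), CDC6 (-0.015 with short RNAs removed, with and without the replicate block), GINS3 (0.059 with quantile scaling) and CCNE1 (0.055 with quantile scaling). With IRF1shRNA, under removal of short RNAs, median-ratio and quantile scaling in turn, they were MCM6 (0.062, 0.013 and 0.039), POLE (0.083, 0.030 and 0.079) and ORC6 (0.051, 0.0038 and 0.024). RFC1 gave 0.028 and CCNE1 0.041 with short RNAs removed and 0.0012 and 0.036 with quantile scaling, and PRIM2 gave 0.011 with short RNAs removed. With 1 IRF1 library left out the ranges were -0.11 to 0.12 for MCM3, -0.17 to 0.049 for MCM6, -0.20 to 0.041 for RFC1, -0.10 to 0.064 for POLE, -0.21 to 0.027 for PRIM2, -0.15 to 0.042 for CCNE1 and -0.15 to 0.032 for ORC6. With DOX they were MCM2 (-0.00517 with median-ratio and -0.015 with quantile scaling), RFC2 (-0.021 with quantile scaling) and TYMS (-0.012 with short RNAs removed, -0.021 with median-ratio and -0.000556 with quantile scaling). With 1 DOX or vehicle library left out the ranges were -0.013 to 0.032 for MCM2, -0.039 to 0.000692 for MCM4, -0.069 to 0.044 for CDC45, -0.029 to 0.13 for GINS2, -0.057 to 0.034 for RFC5 and -0.030 to 0.040 for TYMS.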
